A study of Mus musculus with 36 samples.

Results

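The 9 genes described here mark the cells that wrap blood vessels. Pdgfrb, Rgs5, Kcnj8, Vtn, Abcc9 and Higd1b stand for pericytes, and Acta2, Tagln and Myh11 for vascular smooth muscle. They were chosen by name as known markers and read from a table of 36172 gene entries for mouse hippocampus in all 36 libraries. Values are in CPM, here counts scaled to the library's total after that total was multiplied by a normalisation factor (TMM of edgeR). All mice were Cx3cr1-NuTRAP animals, in which cre recombinase driven by Cx3cr1, a gene of microglia and of border macrophages, switches on a GFP-tagged ribosomal protein. An antibody to GFP then pulls down ribosome-bound RNA of those cells (translating ribosome affinity purification, TRAP), while the input is cleared tissue homogenate set aside before the pulldown, so it holds RNA of every hippocampal cell type. Per the series' title, cre was induced with tamoxifen, and the study asked how the age at induction bears on the pulldown and on age-related changes. The groups were inputs of 10 young early-induced mice (5 females, 5 males), 12 old early-induced mice (7 females, 5 males) and 7 old late-induced mice (5 females, 2 males), and TRAP libraries of the same 7 old late-induced mice. Young and old were 6 and 22 months. All groups carried the same genotype, none was uninduced, and the age at induction is not given in the sources used here. TRAP libraries of early-induced mice were not analysed here.

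Pericytes sit on capillaries and smooth muscle cells on arterioles and larger vessels. Endothelial cells recruit both by secreting PDGF-B, which binds the receptor encoded by Pdgfrb. Pericytes take part in the blood-brain barrier and, through ATP-sensitive potassium channels, in setting capillary tone. Smooth muscle cells contract with smooth muscle actin (Acta2) and smooth muscle myosin (Myh11), and transgelin (Tagln) binds their actin. Neither is among the cells in which Cx3cr1 is known to be active. In bulk RNA of this kind, fewer cells of a type and less RNA per cell cannot be told apart.

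Of the 9 members, 8 could be measured. Acta2, the usual first marker of smooth muscle, is listed at 0 in all 36 libraries. So are 3476 of the 22013 protein-coding entries, or 15.8%, among them genes that brain tissue uses throughout, such as Mtap2 (Map2), Mtap1b, Xbp1 and Hnrnpr. The 0 of Acta2 is therefore given as listed and not as a level. Its paralogue Acta1 had 43.7 to 147 estimated counts per library, and Actg2 0 to 7.48. Of the 50-base windows of the Acta2 transcript, 0.352% also occur in transcripts of other genes, namely Actg1 and actin pseudogenes. The smooth muscle side of every comparison below thus rests on Tagln and Myh11. Tagln has a limit of its own: it lies on the minus strand of chromosome 9 (45929628 to 45936058) across Pcsk7 on the plus strand, and 48.3% of its 50-base windows are shared with Pcsk7 and Gm48529 transcripts. The handling of strand is not given in the sources used here, so Tagln values may hold reads of its neighbour. For Myh11 the shared portion was 0.4% (Myh9 and Myh10), for Abcc9, which the plus-strand 5330439B14Rik overlaps, 2.23%, and for the other 5 measured members 0%.

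Library totals ran from 12.9 to 20.4 M estimated counts. Cx3cr1, the gene whose promoter drives cre, was higher in TRAP than in input in 7 of 7 animals, by a log2 change of 4.09 ± 0.12 (SE; adjusted p = 1.65e-14 by edgeR's quasi-likelihood test). The inputs themselves fell into 2 sets. Summed markers of the choroid plexus (Ttr, Folr1, Kl, Kcnj13, Clic6, Aqp1 and Tmem72), the ventricular tissue beside the hippocampus, came to 47.4 to 192 CPM in 14 inputs and to 1694 to 4161 CPM in the other 15. The high set held 6 of 10 young, 4 of 12 old early-induced and 5 of 7 old late-induced inputs. It held 4 females and 2 males among the young, and 1 female and 3 males among the old early-induced. Markers of fibroblasts of the meninges and vessel walls moved with it, with a sum of 105 to 181 CPM in the low set and 230 to 525 CPM in the high set. The sample index in the labels ran from 1 to 23 in old early-induced inputs, from 25 to 38 in the old late-induced libraries and from 39 to 57 in young inputs, so index and group cannot be told apart. Nothing in the labels says more of batches.

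Coordinates are those of the deposited table, whose build is mm10 per the submitters' processing notes. Rgs5 lies on chromosome 1 (169655501 to 169693526, plus strand), Vtn on 11 (78499120 to 78502325, plus), Higd1b on 11 (102836296 to 102838039, plus), Acta2 on 19 (34241091 to 34255336, minus) and Myh11 on 16 (14194527 to 14291408, minus). Kcnj8 (142564939 to 142571356) and Abcc9 (142587862 to 142702274) are neighbours on the minus strand of chromosome 6, 16506 bases apart. They encode Kir6.1 and SUR2, the pore and the regulatory subunit of the ATP-sensitive potassium channel of vascular mural cells.

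Promoters are shown for the channel pair, of which Kcnj8 was called lower in TRAP and Abcc9 was not, and for Vtn, the most abundant member. RefSeq's table (GRCm38.p6) holds 5 of the 9 members (Rgs5, Kcnj8, Vtn, Abcc9 and Acta2), and Pdgfrb, Higd1b, Tagln and Myh11 are named only. Each line gives the 250 bases before the start that this table uses for the gene, 5′ to 3′ on the gene's strand, with the letters TGGGAA or GGGCGG on either strand in capitals. TGGGAA is the core bound by RBPJ, the DNA-binding factor of Notch signalling, which acts in mural cells through Notch3, and GGGCGG is the GC box. The windows are chr6:142571615-142571864 (minus strand) for Kcnj8, chr6:142702275-142702524 (minus strand) for Abcc9 and chr11:78498870-78499119 (plus strand) for Vtn. Starts differ between annotations. RefSeq's full span of Abcc9 ends at 142702766, so the Abcc9 window lies inside it. The span of Acta2 there ends at 34255585, inside the Acta2 window searched below, and the Kcnj8 window follows RefSeq's end of 142571614, not the deposited one.
Kcnj8: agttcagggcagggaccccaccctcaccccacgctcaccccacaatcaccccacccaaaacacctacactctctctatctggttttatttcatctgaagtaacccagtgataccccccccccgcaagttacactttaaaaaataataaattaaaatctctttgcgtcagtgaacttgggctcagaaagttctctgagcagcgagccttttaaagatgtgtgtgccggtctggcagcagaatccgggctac
Abcc9: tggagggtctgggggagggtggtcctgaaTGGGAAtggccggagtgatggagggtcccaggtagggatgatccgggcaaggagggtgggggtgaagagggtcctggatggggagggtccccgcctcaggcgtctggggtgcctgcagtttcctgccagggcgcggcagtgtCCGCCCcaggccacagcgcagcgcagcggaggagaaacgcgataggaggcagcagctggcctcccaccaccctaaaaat
Vtn: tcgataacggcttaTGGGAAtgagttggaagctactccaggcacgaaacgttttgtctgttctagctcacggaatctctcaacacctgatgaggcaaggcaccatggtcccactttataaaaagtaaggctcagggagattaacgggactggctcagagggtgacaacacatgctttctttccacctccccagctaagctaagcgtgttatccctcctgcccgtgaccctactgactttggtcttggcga
The Kcnj8 window holds neither motif and has 49.2% G and C. The Abcc9 window is richer in G and C, at 66.8%, with TGGGAA at positions -221 to -216 from the table's start and the GC box, as CCGCCC, at -79 to -74. The Vtn window, with 50.4% G and C, holds TGGGAA at -236 to -231 and a TATAAA in lower case at -135 to -130, overlapped by its reverse at -137 to -132. Acta2 also has TGGGAA, at -27 to -22, and Rgs5 has none of the motifs searched. Among 32851 promoters of the same length, 21.6% hold TGGGAA, 32.7% GGGCGG, 12.4% TATAAA and 1.47% the CArG box of serum response factor, which regulates contractile genes and which none of the 5 windows holds. These matches are letters in a window and nothing more.

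**Figure D1:**
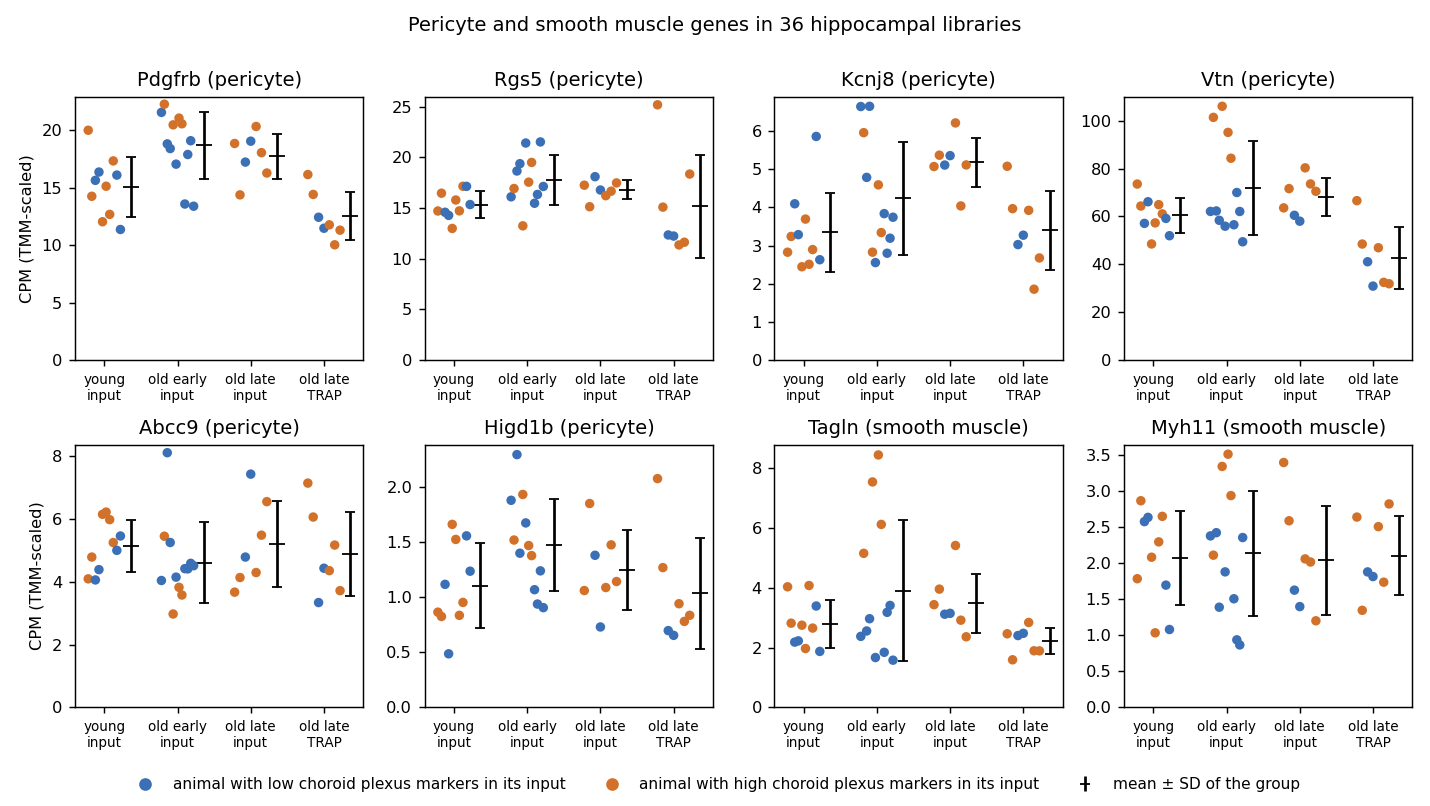
CPM of the 8 measured members (vertical axes, from 0) in each library of the 4 groups, with the mean ± SD of each group in black and colours for low or high choroid plexus markers in the animal's input. Pdgfrb and Vtn have their lowest group means in TRAP, 12.5 and 42.6 CPM, and Tagln reaches 5.15 to 8.45 CPM in 4 of the old early-induced inputs, those with high choroid plexus markers.

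Levels differed widely between members. Per kilobase of exon, Vtn, which encodes the secreted adhesion protein vitronectin, stood first in all 4 groups, with a mean of 29.8 CPM per kilobase in young inputs, 35.5 in old early-induced inputs, 33.6 in old late-induced inputs and 21 in TRAP. Rgs5, a regulator of G protein signalling, came next and Pdgfrb after it in each group, at 3.37 and 2.75 CPM per kilobase in young inputs, and their ranges overlapped (2.85 to 3.77 and 2.07 to 3.65). Kcnj8, Tagln and Higd1b, the last a small mitochondrial protein, followed with overlapping ranges in every group and means of 1.31, 1.41 and 1.31 CPM per kilobase in young inputs. Abcc9 (0.614) and Myh11 (0.273) were the lowest in young inputs, and they were so in the other 3 groups too. The pore gene Kcnj8 thus stood above the regulatory gene Abcc9 per kilobase in all 4 group means. In young inputs the Kcnj8 range (0.959 to 2.3) lay wholly above that of Abcc9 (0.485 to 0.743), whereas in TRAP the ranges overlapped (0.728 to 1.99 and 0.399 to 0.853). The low counts behind Higd1b and Myh11 limit what can be seen for them.

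In the pulldown of old late-induced mice, 4 of the 8 measured members were lower than in input and none was higher. The receptor Pdgfrb, the channel pore Kcnj8 and vitronectin fell among the pericyte genes, and Tagln among the smooth muscle genes. Rgs5, Abcc9, Higd1b and Myh11 did not pass the test. Over all 14596 genes tested, 59.2% were called in either direction and 28.8% were called lower, against which the 4 of 8 members are to be read. The median log2 change of the 8 members was -0.44, beside -0.02 over all genes tested.

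Vtn ran from 58 to 80.3 CPM in the 7 inputs (median 70.5) and from 30.9 to 66.6 in the 7 TRAP libraries (median 41.1). In 6 of 7 TRAP libraries it was below every input, and 1 animal, animal 1, overlapped. The log2 change was -0.72 ± 0.13 (SE; edgeR adjusted p = 0.000136), lower in 6 of 7 animals. Kcnj8 ran from 4.04 to 6.21 CPM in input (median 5.11) and from 1.86 to 5.08 in TRAP (median 3.27). Again 6 of 7 TRAP libraries lay below all inputs. Its log2 change was -0.65 ± 0.17 (SE; edgeR adjusted p = 0.00334), lower in 6 of 7 animals, and in animal 1 input and TRAP were nearly level (5.07 and 5.08 CPM). Pdgfrb ran from 14.4 to 20.3 CPM in input (median 18.1) and from 10 to 16.1 in TRAP (median 11.8). Of the TRAP libraries, 5 of 7 were below all inputs. The log2 change of Pdgfrb was -0.52 ± 0.10 (SE; edgeR adjusted p = 0.00034).

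The other pericyte genes overlapped more. Rgs5 had a narrow range in input, 15.1 to 18.1 CPM (median 16.8), and a wide one in TRAP, 11.3 to 25.2 (median 12.3). There, 5 TRAP libraries lay below all inputs and 2 above all of them, and the log2 change of -0.18 ± 0.14 (SE) was not called (edgeR adjusted p = 0.301). The 2 high libraries were those of animal 1 (25.2 CPM) and animal 7 (18.3 CPM). Animal 1 had the highest TRAP value for Pdgfrb, Rgs5, Kcnj8, Vtn, Abcc9 and Higd1b, that is for each of the 6 pericyte genes. It also had the highest endothelial marker sum of the TRAP libraries, 377 CPM. Its Cx3cr1 log2 ratio of TRAP to input was the lowest of the 7 animals, 3.78. So were its TRAP sums of microglia markers, 8135 CPM, and of border macrophage markers, 97.9 CPM. The part of any of these in the member values was not tested. Without animal 1 (added to the 4 called above) Rgs5 (-0.31, edgeR adjusted p = 0.039) and Higd1b (-0.59, edgeR adjusted p = 0.0421) were called lower as well. Rgs5 was also called in females alone (-0.37, edgeR adjusted p = 0.0295).

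Higd1b was low throughout, 0.73 to 1.85 CPM in input and 0.654 to 2.08 in TRAP, with a log2 change of -0.35 ± 0.24 (SE; edgeR adjusted p = 0.222). Abcc9 ran from 3.67 to 7.43 CPM in input (median 4.79) and from 3.34 to 7.14 in TRAP (median 4.43). Its animals went both ways, 4 lower and 3 higher, for a log2 change of -0.11 ± 0.20 (SE; edgeR adjusted p = 0.64). The channel's pore gene was therefore called lower in TRAP and the neighbouring regulatory gene was not, but the difference between the pair was not tested.

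Of the smooth muscle genes, Tagln ran from 2.36 to 5.42 CPM in input (median 3.15) and from 1.59 to 2.84 in TRAP (median 2.4). It was lower in 7 of 7 animals, with 3 TRAP libraries below all inputs. Its log2 change was -0.66 ± 0.20 (SE; edgeR adjusted p = 0.00859). In females alone the call was lost (-0.57, edgeR adjusted p = 0.0605). Myh11 ran from 1.2 to 3.4 CPM in input (median 2.02) and from 1.35 to 2.83 in TRAP (median 1.88). Lower values in TRAP came from 3 animals and higher ones from 4, for a log2 change of 0.09 ± 0.23 (SE; edgeR adjusted p = 0.765). Tagln was thus called lower in TRAP and Myh11 was not, but the difference between the pair was not tested.

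**Figure D2:**
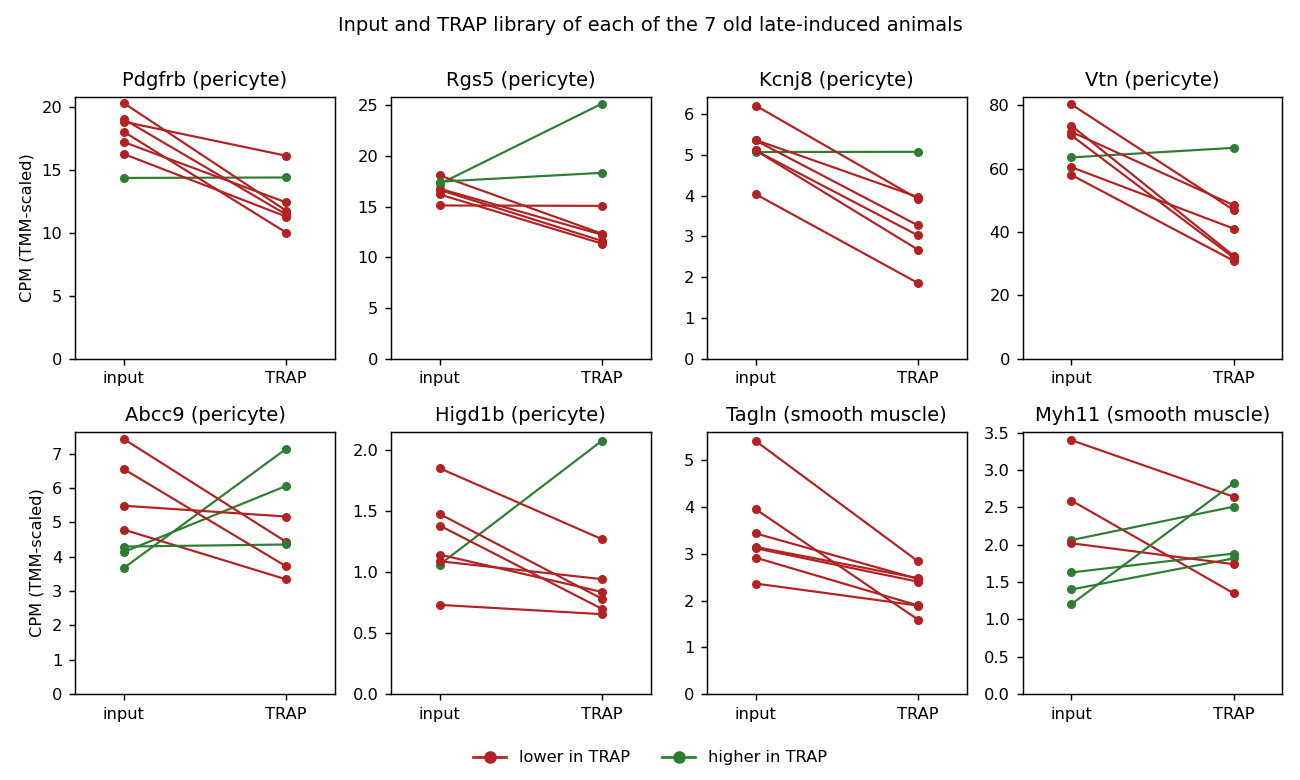
CPM of each measured member (vertical axes, from 0) in the input and TRAP library of each of the 7 old late-induced animals, joined by a line that is red where TRAP was lower and green where it was higher. Tagln was lower in 7 of 7 animals, Pdgfrb, Kcnj8, Vtn and Higd1b in 6, Rgs5 in 5, Abcc9 in 4 and Myh11 in 3.

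Other genes of the same cells and pathways were read from lists. Of 12 further pericyte and mural genes, 11 were tested in TRAP, 4 were lower and 1 was higher. The lower ones included Tbx18 (-0.87 ± 0.24), a transcription factor of mural cells, Cspg4 (-0.69 ± 0.17), the NG2 proteoglycan shared by pericytes and oligodendrocyte precursors, and Cd248 (-0.60 ± 0.24). The exception was Foxf2 (0.91 ± 0.23), a forkhead factor found in both pericytes and brain endothelium. Of 17 further contractile genes, 13 were tested and 3 were lower: the smooth muscle channel subunit Kcnmb1 (-0.89 ± 0.35), the myosin light chain kinase Mylk (-0.65 ± 0.10) and tropomyosin Tpm1 (-0.35 ± 0.05). Many of the contractile genes are used in other brain cells too. The subunits of the neuronal form of the potassium channel, Kcnj11 (-0.45 ± 0.10) and Abcc8 (-0.31 ± 0.11), were both lower.

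The ligands and receptors that join endothelial cells and mural cells split. In the PDGF family the Pdgfrb ligand Pdgfb was higher in TRAP (1.36 ± 0.08), and which cells its RNA came from was not tested. Pdgfa (-0.34 ± 0.09) and Pdgfra (-1.70 ± 0.13), the receptor of oligodendrocyte precursors, were lower. Of 14 other signals, 6 were higher and 3 lower. The highest were Tgfb1 (4.18 ± 0.13), its receptor Tgfbr2 (3.33 ± 0.15) and the co-receptor endoglin, Eng (2.40 ± 0.10), of which Tgfb1 and Tgfbr2 are also microglial genes. The lower ones were the Tie2 ligand Angpt1 (-0.97 ± 0.12) and the endothelin receptors Ednrb (-0.97 ± 0.13) and Ednra (-0.66 ± 0.24), Ednra being the receptor of vascular smooth muscle.

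Markers of other cell types moved in both directions. Of 10 endothelial markers, 9 were higher in TRAP and none lower. Pecam1 (1.70 ± 0.11), Flt1 (1.61 ± 0.09) and Ly6c1 (1.28 ± 0.08) had the largest increases, and the summed markers were 120 to 182 CPM in input and 234 to 377 CPM in TRAP, without overlap. Fibroblast markers went in the direction of the called members, with 7 of 9 lower, and their sum ran from 132 to 430 CPM in input and from 61.7 to 192 CPM in TRAP. No defining marker of either list was at 0. Lower too were 6 of 6 astrocyte markers (median log2 change -0.46), 6 of 6 oligodendrocyte markers (-1.30), 5 of 5 markers of oligodendrocyte precursors (-1.33), 5 of 7 of the choroid plexus (-1.96), 4 of 4 blood markers tested (-2.32) and 2 of 5 neuronal markers tested (-0.13). The part of other cell types' RNA in the member changes was not tested.

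With age, 2 of the 8 measured members were higher in old early-induced than in young inputs and none was lower. These were Pdgfrb and Rgs5, both pericyte genes. Over all 14948 genes tested, 13% were called higher and 25.6% in either direction. The median log2 change of the 8 members was 0.29, beside 0.01 over all genes. Pdgfrb ran from 11.4 to 20 CPM in the 10 young inputs (median 15.4) and from 13.4 to 22.3 in the 12 old early-induced inputs (median 19). The groups overlapped, with 5 of the 12 old inputs above all young ones and 10 above the young median. The log2 change was 0.32 ± 0.09 (SE; edgeR adjusted p = 0.00989). Rgs5 ran from 13 to 17.1 CPM in young inputs (median 15) and from 13.2 to 21.5 in old early-induced inputs (median 17.3), with 6 of 12 above all young inputs. Its log2 change was 0.22 ± 0.07 (SE; edgeR adjusted p = 0.0152). In females alone neither gene was called (Pdgfrb 0.25, edgeR adjusted p = 0.198; Rgs5 0.24, edgeR adjusted p = 0.0954).

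The other 6 members were not called in this comparison. Vtn had a log2 change of 0.27 ± 0.10 (SE; edgeR adjusted p = 0.0526), Kcnj8 of 0.35 ± 0.17 (SE; edgeR adjusted p = 0.137) and Higd1b of 0.41 ± 0.20 (SE; edgeR adjusted p = 0.13). Leaving out any 1 of 6 libraries, young 1 or 7 or old early-induced 1, 6, 9 or 12, brought Vtn under the threshold, with edgeR adjusted p from 0.0235 to 0.0483, and so did upper quartile scaling (0.29, adjusted p = 0.0426). Kcnj8 passed without young input 9 alone, which had the highest young value of 5.86 CPM (0.48, edgeR adjusted p = 0.0309). Abcc9 had the only negative change, -0.18 ± 0.12 (SE; edgeR adjusted p = 0.289). Tagln (0.47 ± 0.25, edgeR adjusted p = 0.17) and Myh11 (0.07 ± 0.21, edgeR adjusted p = 0.839) were not called.

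In old late-induced against young inputs, 2 of 8 members were called, Pdgfrb and Kcnj8, both higher. In that comparison 17% of all genes were called higher and 34.5% in either direction, and the members' count is close to that share. The comparison uses the same young inputs as the one before. Kcnj8 ran from 2.44 to 5.86 CPM in young inputs (median 3.07) and from 4.04 to 6.21 in old late-induced inputs (median 5.11). All 7 old late-induced inputs were above the young median but only 1 was above the highest young input. The log2 change of Kcnj8 was 0.65 ± 0.19 (SE; edgeR adjusted p = 0.00996), the largest of the 8 in either age comparison. It was lost in females alone (0.58, edgeR adjusted p = 0.0982). Pdgfrb ran from 14.4 to 20.3 CPM in old late-induced inputs, with 6 of 7 above the young median and 1 above all young inputs. Its log2 change of 0.27 ± 0.11 (SE; edgeR adjusted p = 0.0457) lies at the threshold. Leaving out any 1 of 19 of the 29 inputs left fewer than the 2 members called. The Pdgfrb call was lost without the sex covariate (0.25, edgeR adjusted p = 0.0725), in females alone (0.32, edgeR adjusted p = 0.0695) and with limma voom (0.27, adjusted p = 0.0513). The rest were not called: Rgs5 at 0.13 ± 0.08 (edgeR adjusted p = 0.187), Vtn at 0.24 ± 0.12 (0.119), Higd1b at 0.19 ± 0.23 (0.557), Abcc9 at -0.05 ± 0.14 (0.802), Tagln at 0.38 ± 0.29 (0.321) and Myh11 at 0.06 ± 0.24 (0.873). Vtn passed with only the 2 groups compared in the fit (0.21, edgeR adjusted p = 0.0393).

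**Figure D3:**
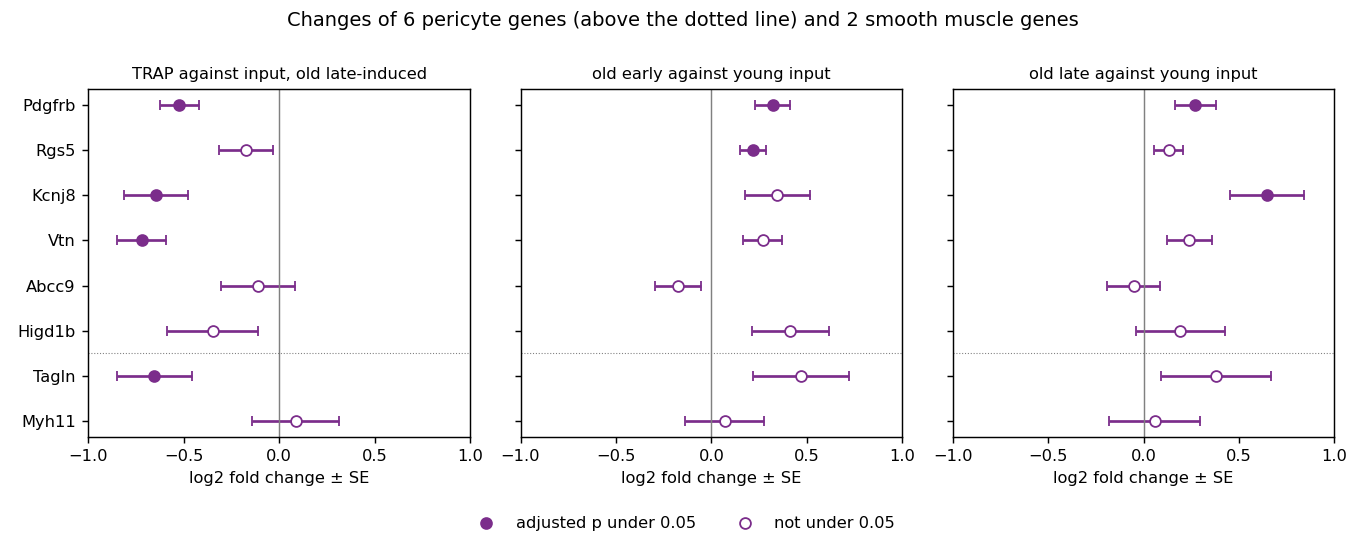
Log2 fold changes with their standard errors (horizontal axes) for the 6 pericyte genes and, under the dotted line, the 2 measured smooth muscle genes in TRAP against input and in the 2 age comparisons. Filled points had an adjusted p under 0.05: Pdgfrb, Kcnj8, Vtn and Tagln to the left in TRAP, Pdgfrb and Rgs5 to the right in the early-induced comparison, and Pdgfrb and Kcnj8 in the late-induced one.

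Across the groups Pdgfrb (chromosome 18, 61045150 to 61085067, plus strand), whose neighbour at 20505 bases is the microglial gene Csf1r, had the order old early-induced (18.7 ± 2.88 CPM, SD, n = 12), old late-induced (17.7 ± 1.98, n = 7), young (15.1 ± 2.62, n = 10) and TRAP (12.5 ± 2.09, n = 7). Between the old groups, whose means of Pdgfrb lie within 1 SD of each other, no member was called by edgeR, and 0.0334% of all genes were. At an unadjusted p under 0.05 the count was 0 of 8 members, beside 1736 of the 14948 genes tested, and DESeq2 called 0 members. The largest member changes there were Kcnj8 at 0.30 ± 0.18 (SE; edgeR adjusted p = 0.536) and Higd1b at -0.22 ± 0.22 (SE; edgeR adjusted p = 0.727). That does not show that the old groups were alike.

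Among the companion genes, the same direction as Pdgfrb was seen in part of the mural list. Over all genes, 13% were called higher in the early-induced and 17% in the late-induced comparison with young. Of 12 further mural genes, 3 and 4 were called higher, and none lower. They included Mcam (CD146; 0.47 ± 0.07 and 0.57 ± 0.08), Cd248 (0.55 ± 0.17 and 0.58 ± 0.20) and Cspg4 (0.21 ± 0.07 and 0.32 ± 0.08), and Foxf2 in the late-induced comparison (0.57 ± 0.20). Of 14 contractile genes tested none was called higher in either comparison, although 9 and 7 had a positive change, and the difference from the mural list was not tested. Mrtfa (-0.29 ± 0.06 and -0.46 ± 0.07) and Mrtfb (-0.20 ± 0.06 and -0.26 ± 0.07), co-activators of serum response factor, were lower in both. Of the PDGF family, Pdgfa was higher in both (0.24 ± 0.05 and 0.38 ± 0.06), and the Pdgfrb ligand Pdgfb was not called (-0.03 ± 0.06 and 0.11 ± 0.07). Of 14 mural and endothelial signals, 6 were higher and 1 lower in the early-induced comparison, and 7 were higher in the late-induced one. Tgfb1 (0.68 ± 0.11 and 0.73 ± 0.13), Tgfbr2 (0.47 ± 0.10 and 0.62 ± 0.11) and the sphingosine phosphate receptor S1pr3 (0.47 ± 0.12 and 0.69 ± 0.14) were among them, and Jag1, a Notch ligand, was the lower one (-0.33 ± 0.10). Of 10 endothelial markers 1 was called higher in each comparison, the tight junction gene Cldn5 (0.81 ± 0.17 and 0.72 ± 0.20), and 1 lower in the first, Slco1c1 (-0.50 ± 0.17). A rise with age was not particular to mural genes. Called higher in the same order were 9 and 10 of 10 microglia markers and 5 and 6 of 6 oligodendrocyte markers. Of 4 blood markers tested, 2 and 4 were higher, and none of these 3 lists had a lower one. No fibroblast or choroid plexus marker was called in either comparison. The summed microglia markers were 360 to 414 CPM in young and 437 to 516 CPM in old early-induced inputs, and their part in these signals was not tested.

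Vtn and Tagln, neither called with age in the main fit, were also read within the 2 sets of inputs. Whether their age changes differ between the sets was not tested. Among the old early-induced inputs, the 4 with high choroid plexus markers, animals 2, 5, 7 and 8, had 84.3 to 106 CPM of Vtn, and the 8 others had 49.4 to 70. Tagln was 5.15 to 8.45 CPM in the same 4 and 1.58 to 3.41 in the others. Neither gene overlapped between the sets. How many of all genes fail to overlap there was not counted, so this is not read as particular to these genes. In young inputs they did overlap, with Vtn at 48.5 to 73.5 CPM in the 6 high inputs and 51.9 to 66.1 in the 4 low ones, and Tagln at 1.97 to 4.08 and 1.87 to 3.39. Myh11 showed less of this, at 2.11 to 3.52 CPM in the high and 0.868 to 2.43 in the low old early-induced inputs. Pdgfrb was 20.5 to 22.3 CPM in the high and 13.4 to 21.6 in the low old early-induced inputs, with overlap. Rgs5 showed none of this, at 13.2 to 19.5 and 15.5 to 21.5 CPM. The summed fibroblast markers in the same 4 inputs were 428 to 525 CPM, above the 230 to 330 CPM of the high young inputs. Blood markers were highest in 1 of the 4, at 2273 CPM.

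Fits made after these sets were seen gave different calls. Within high inputs alone, old early-induced against young, Vtn was higher by 0.61 (edgeR adjusted p = 0.000929), Tagln by 1.09 (edgeR adjusted p = 0.0078) and Pdgfrb by 0.44 (edgeR adjusted p = 0.0319), 3 members in all, and Rgs5 was no longer called (0.17, edgeR adjusted p = 0.296). Within low inputs alone no member was called by edgeR, with Pdgfrb at 0.27 (adjusted p = 0.243), Rgs5 at 0.24 (adjusted p = 0.193), Vtn at 0.02 (adjusted p = 0.937) and Tagln at -0.22 (adjusted p = 0.668). With the log2 sum of the choroid plexus markers as a covariate over all inputs 4 members were called. Vtn (0.31, edgeR adjusted p = 0.00201) and Tagln (0.52, edgeR adjusted p = 0.0439) came in addition to Pdgfrb and Rgs5. The genes called in each set are counted in the closing section. The number called with the covariate is not given, so these member counts are not read as a result about the members. For old late-induced against young inputs the Kcnj8 change was 0.28 (edgeR adjusted p = 0.706) within the low inputs, where only 2 late-induced inputs remain, and 0.81 (edgeR adjusted p = 0.00622) within the high inputs. The part of choroid plexus, fibroblast or blood RNA in the member values was not tested.

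**Figure D4:**
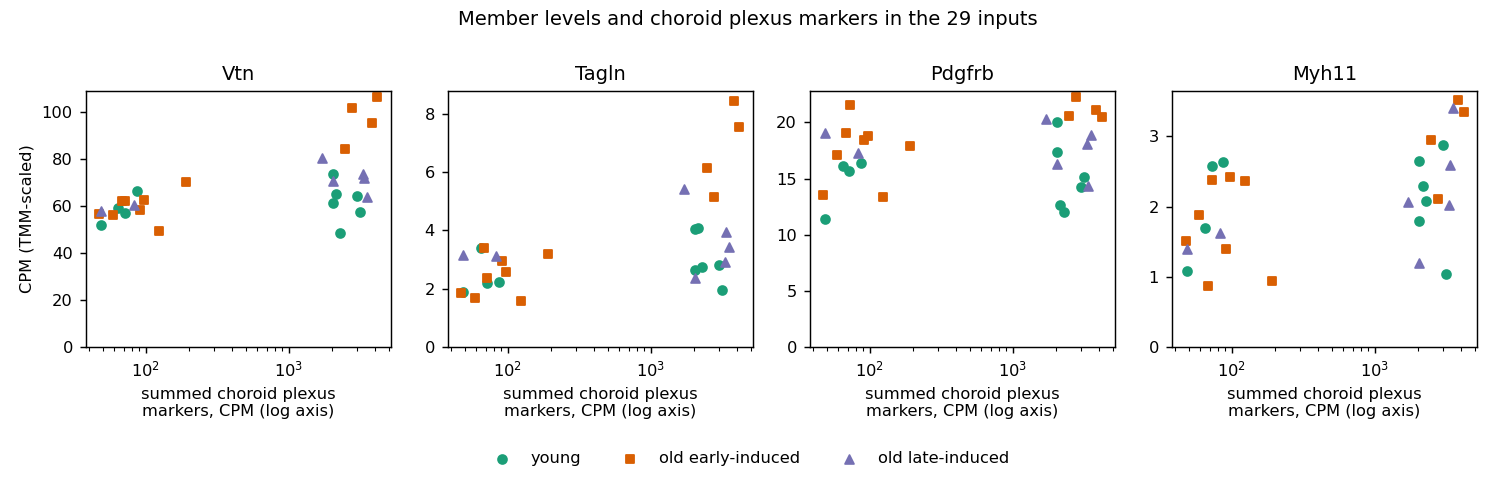
CPM of Vtn, Tagln, Pdgfrb and Myh11 (vertical axes, from 0) against the summed CPM of 7 choroid plexus markers (log axis) in the 29 inputs, with a symbol for each group. No input lies between 192 and 1694 CPM of the markers, and the 4 old early-induced inputs on the right hold the 4 highest Vtn values, 84.3 to 106 CPM, and Tagln values of 5.15 to 8.45 CPM.

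Pericyte genes against smooth muscle genes, taken as the mean log2 CPM of Tagln and Myh11 minus that of the 6 pericyte genes in each library, was described without a test. The difference was -1.74 ± 0.40 in young inputs (SD, n = 10), -1.80 ± 0.55 in old early-induced inputs (SD, n = 12), -1.82 ± 0.39 in the late-induced inputs (n = 7, SD) and -1.67 ± 0.42 in TRAP (SD, n = 7). The means lie within 1 SD of each other, while the medians were -1.60, -2.08, -1.93 and -1.45 in the same order. Old early-induced inputs had the widest spread, from -2.27 to -0.81. Summed pericyte genes came to 107 to 128 CPM in old late-induced inputs and to 61.9 to 122 CPM in TRAP, and the summed smooth muscle genes to 3.57 to 7.48 and 2.94 to 5.35 CPM.

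Whether the members vary together between animals was asked of their 28 pairs, after removing group and sex. The planned permutation test over all 29 inputs gave adjusted p under 0.05 by Pearson's r for 3 pairs. These were Vtn with Tagln (0.85), Pdgfrb with Vtn (0.53) and Pdgfrb with Tagln (0.52), the first alone by Spearman's rho. The pairs were then tested within each of the 2 sets, which were split after the data were seen. In each set 1 input stood alone in its group and sex, leaving a residual of 0, and permutation ignored sex. The p-values within sets are therefore approximate. In the 14 low inputs 3 pairs had an adjusted p under 0.05, and 2 of them joined a pericyte gene with a smooth muscle gene. Pdgfrb and Tagln had Pearson's r of 0.86 (permutation p = 0.00028, adjusted p = 0.00784) and Spearman's rho of 0.84 (permutation p = 0.00082, adjusted p = 0.023), and r was 0.85 without the 2 libraries farthest from the Pdgfrb median. Vtn and Tagln had r of 0.79 (permutation p = 0.00083, adjusted p = 0.0116) and rho of 0.79 (permutation p = 0.00429, adjusted p = 0.04), with r of 0.59 without the farthest 2. Pdgfrb and Vtn had r of 0.77 (permutation p = 0.004, adjusted p = 0.0373) and rho of 0.79 (permutation p = 0.00427, adjusted p = 0.04), with r of 0.58 without the farthest 2. In the same inputs, with group means removed, Vtn, Tagln and Pdgfrb had a median r of 0.54, 0.54 and 0.25 with 9 fibroblast markers. With 10 endothelial markers it was 0.52, 0.37 and 0.46. The part of other cell types' RNA in these pairs, and of Pcsk7 reads in Tagln, was not tested.

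In the 15 high inputs no pair had an adjusted p under 0.05, and r ran from -0.65 (Abcc9 with Tagln) to 0.62 (Rgs5 with Kcnj8). Pdgfrb had r of 0.11 with Tagln (permutation p = 0.731, adjusted p = 0.931) and 0.36 with Vtn (permutation p = 0.317, adjusted p = 0.49). There Vtn and Tagln had r of 0.50 (permutation p = 0.0831, adjusted p = 0.3) and rho of 0.60 (permutation p = 0.0317, adjusted p = 0.296). The difference between the sets was not tested. The channel genes Kcnj8 and Abcc9 did not pass in either set, with r of 0.17 (permutation p = 0.639, adjusted p = 0.918) in the low and 0.49 (permutation p = 0.191, adjusted p = 0.485) in the high inputs, the latter falling to -0.19 without the farthest 2. Tagln and Myh11 had r of -0.37 in the low inputs (permutation p = 0.242, adjusted p = 0.847) and 0.52 in the high inputs (permutation p = 0.0629, adjusted p = 0.3), so the smooth muscle pair showed no common sign.

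Likeness to other genes was ranked by Pearson's r of log2 CPM, with group means removed, over the 29 inputs and 12954 genes. It is given as a description, since the inputs share library, depth and the 2 sets. Pdgfrb was most like Cdh5, the endothelial cadherin, with r of 0.80 over all inputs, 0.79 in the low and 0.82 in the high set, followed by Slc22a8 (0.72) and Itih5 (0.68). Vtn was most like Cp (0.91), Aldh1a2 (0.90) and Gjb2 (0.90), and within the low set r with Cp was 0.58. Tagln was most like Aldh1a2 (0.86), Ptgds (0.81) and Itih2 (0.81), with r of 0.72, 0.64 and 0.68 in the low set and 0.57, 0.41 and 0.38 in the high set. Myh11 was most like Klf15 (0.75), Sgk1 (0.73) and Upp1 (0.72), of which Klf15 had r of 0.85 in the low and 0.39 in the high set. Genes like Rgs5 included Sec24b (0.80) and Slc25a36 (0.75). Kcnj8 was most like Tmem161b (0.69), Akap2 (0.62) and Col5a3 (0.61), Abcc9 like Nomo1 (0.71), Zfp462 (0.66) and Galnt9 (0.65), and Higd1b like Mrpl19 (0.67), Anapc4 (0.65) and Mlst8 (0.64). Cdh5 itself was not called with age (0.34 ± 0.18 and 0.33 ± 0.21) and was higher in TRAP (1.07 ± 0.15), where Pdgfrb was lower.

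Between males and females no member was called by edgeR, in a test that called 0.174% of all genes. Vtn, Abcc9 and Myh11, or 3 of 8, had an unadjusted p under 0.05, and DESeq2 called 0 members. By edgeR's p these 3 ranked 963, 178 and 498 among the 14948 genes tested, so at least 963 genes passed the same unadjusted cut. The full number is not given here, so the 3 of 8 are not read as a result about the members. Abcc9 had a male minus female log2 change of -0.35 ± 0.11 (SE; edgeR adjusted p = 0.249) and Myh11 of 0.49 ± 0.18 (SE; edgeR adjusted p = 0.341), the furthest from 0. Whether the early-induced age change differed between sexes was tested by an interaction, in which 0% of 14547 genes were called by edgeR, 42 by DESeq2, and 2272 had an unadjusted p under 0.05. No member was called, and Higd1b had the largest difference, 0.92 ± 0.38 (SE; edgeR adjusted p = 0.256). It was the 1 member with an unadjusted p under 0.05, and DESeq2 called 0 members.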

How the data were processed

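PolyA RNA of hippocampus was sequenced and per the file headers the deposited table holds raw values for the 36 libraries. They are estimated counts made by the authors, since 77.2% of the nonzero values are not whole numbers. The submitters' processing notes name mm10 and DESeq2, and the aligner, the counting tool and strand handling are not given in the sources used here. Counts were rounded and tested with edgeR 4.0.16 in R 4.3.3 (filterByExpr with a minimum count of 10, TMM, glmQLFit, glmQLFTest). Adjusted p-values are Benjamini-Hochberg over all genes tested, and genes under 0.05 were called. Standard errors were derived from the F statistic. TRAP against input used the 14 old late-induced libraries and a sex term, the contrasts among the 29 inputs came from 1 fit with group and sex, and the interaction used the 22 early-induced inputs. CPM values use TMM over all 36 libraries, and log2 CPM a prior count of 2. The TMM factors were 0.90 to 0.97 in TRAP libraries and 1.01 to 1.03 in old late-induced inputs. The direction of near-level pairs, such as Kcnj8 in animal 1, can therefore depend on them, and so can the counts of animals lower in TRAP.

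Input and TRAP of an animal were paired by the animal number in the labels. Their deviations from the group means correlated across genes in 7 of 7 animals, from 0.29 to 0.44. Replicates are separate animals. Other libraries were numbered in accession order. Inputs were split into low and high choroid plexus sets at 1000 CPM, after the data were seen. Member pairs were tested by two-sided permutation within groups (100000 resamples, scipy 1.17.1). Further genes came from 15 lists, and of each list the up to 3 largest called changes in each direction were named, with other genes chosen after their values were seen. Genes most like a member were taken from those with an average log2 CPM over 1, 3 for each member, and the result of 1 gene is not reported here. Exon lengths are from GENCODE vM21. The members and lists were chosen with earlier results of these data known. The tests were tested on simulated data. Counting precision was not turned into intervals, since reads carry no molecular identifiers. Alternatives were DESeq2 1.42.0, voom of limma 3.58.1, other scalings, no filter, other covariates and groups, an animal block, and each library left out in turn.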

Additional observations from a re-analysis of the deposited data

How the results depend on the processing

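In TRAP against input the 4 member calls held under all scalings, filters and tools run, and only females alone took 1 away. With the animal as a replicate block 4 members and 9330 genes were called, and no member call changed. Leaving out an animal gave 4 to 6 members. In old early-induced against young inputs, females alone gave 1198 genes and 0 members, low choroid plexus inputs 1234 and 0, high ones 2058 and 3, and the covariate 4 members. In old late-induced against young inputs, females alone gave 2787 genes and 0 members, low inputs 1875 and 0, high inputs 2635 and 1. No filter, voom, no sex covariate and the choroid plexus covariate each gave 1 member there, and leaving out a library 1 to 2. Old late-induced against old early-induced inputs had 5 genes called, against 58 by DESeq2, 182 in females, 101 in low and 0 in high inputs, 0 with only the groups compared, 3 with the covariate, and 0 to 164 with a library left out (164 without old early-induced animal 5). The sex contrast had 26, against 64 by DESeq2, 12 in early-induced groups, 10 in low and 11 in high inputs, and 17 to 32 with a library left out. The interaction had 0, against 42 by DESeq2 and 0 to 523 with a library left out (523 without old early-induced animal 6). By Pearson's r, correlated member pairs numbered 3 over all inputs (1 by Spearman's rho, Vtn with Tagln) and 0 in high inputs. No member was called under any of these alternatives for the last 3 contrasts. No called change reversed, and of 1633 member values under alternatives 57, called in neither fit, changed sign. The cause of these differences was not tested. Low counts limit Higd1b, Myh11 and Tagln, and Acta2 gives no value.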
